A study of Mus musculus with 6 samples.

Results

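Sertoli cells are the somatic nurse cells of the seminiferous tubule. They surround the germ cells, feed them through secreted proteins, and in the weeks after birth they stop dividing, close the blood-testis barrier and switch on the genes of the mature cell under follicle-stimulating hormone and testosterone. The 9 genes described here are secreted or maturation markers of these cells. Clu, Trf and Shbg encode secreted carrier proteins, Ctsl a secreted and lysosomal protease, Cst9 a cystatin-related protein and Defb36 a beta-defensin, whereas Rhox8 encodes a homeobox transcription factor. Tsx is an X-linked gene whose name calls it testis-specific, which arrays of testis alone cannot show. Aard encodes a protein named for its alanine and arginine rich domain. The genes were chosen with earlier results of these data known. They were matched by name in the platform annotation, and each had 1 transcript cluster (a set of probes that together read 1 transcribed region). They are 9 of the 21789 clusters with a single gene symbol.

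The arrays held RNA of whole testes of knockout mice and of control mice, both at postnatal day 15 and with 3 samples in each group. Neither the mouse strain, nor the allele, nor any Cre driver is given in the sources used here, and it is not stated whether replicates were separate animals. The p-values therefore measure only how these samples spread, and that spread may be technical. Values are the log2 RMA values of Affymetrix mouse gene arrays, so a difference of 1 is a doubling. Precision is limited by having 3 arrays a group. The array medians of these clusters lay between 8.52 and 8.55, and the members' values between 10.06 and 12.94. Brightness depends on the probes of each cluster, so no order of abundance among the genes is drawn.

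Other defining genes of the labelled tissue were measured as well. The Sertoli transcription factor Sox9 averaged 11.73 in knockout and 11.65 in control arrays, the germ cell helicase Ddx4 11.86 and 12.06, the germ cell RNA-binding protein Dazl 12.62 and 12.62, and the Leydig cell enzyme Cyp17a1 11.15 and 10.75. Cyp17a1 read 11.06, 10.98 and 11.40 in the knockout arrays and 11.27, 11.06 and 9.93 in the control arrays, so control replicate 3 lowered its control mean. Lcn5, a lipocalin of the epididymis, averaged 6.71 in knockout and 7.02 in control arrays (6.66, 6.93 and 7.48 in control replicates 1, 2 and 3), and the plasma protein gene Alb 6.05 and 5.91. Other plasma protein genes were not all as dim, since Ahsg averaged 9.71 in knockout and 9.68 in control arrays.

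The comparison of knockout with control testes asked whether these Sertoli cell products differ with the genotype. No member passed the test: 0 of 9 had an adjusted p under 0.05 in limma, against 0.0138% of all clusters (3 clusters, 2 higher and 1 lower). At an unadjusted p under 0.05, 1 of 9 was higher (Trf), against 4.10% of all clusters, and 0 of 9 was lower, against 6.45%. Of the members 8 lay above and 1 below the control mean and their median difference was 0.04, while 51.3% of all clusters lay above it and their median was 0.0033. The members' differences ranged from -0.0067 to 0.16. In bulk RNA of a testis, fewer cells of a type and less RNA per cell cannot be told apart. With 3 arrays a group these differences have intervals of their own: in 8 of the 9 genes, all but Cst9, the 95% interval of the knockout over control ratio lay between 0.880 and 1.25.

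**Figure D1:**
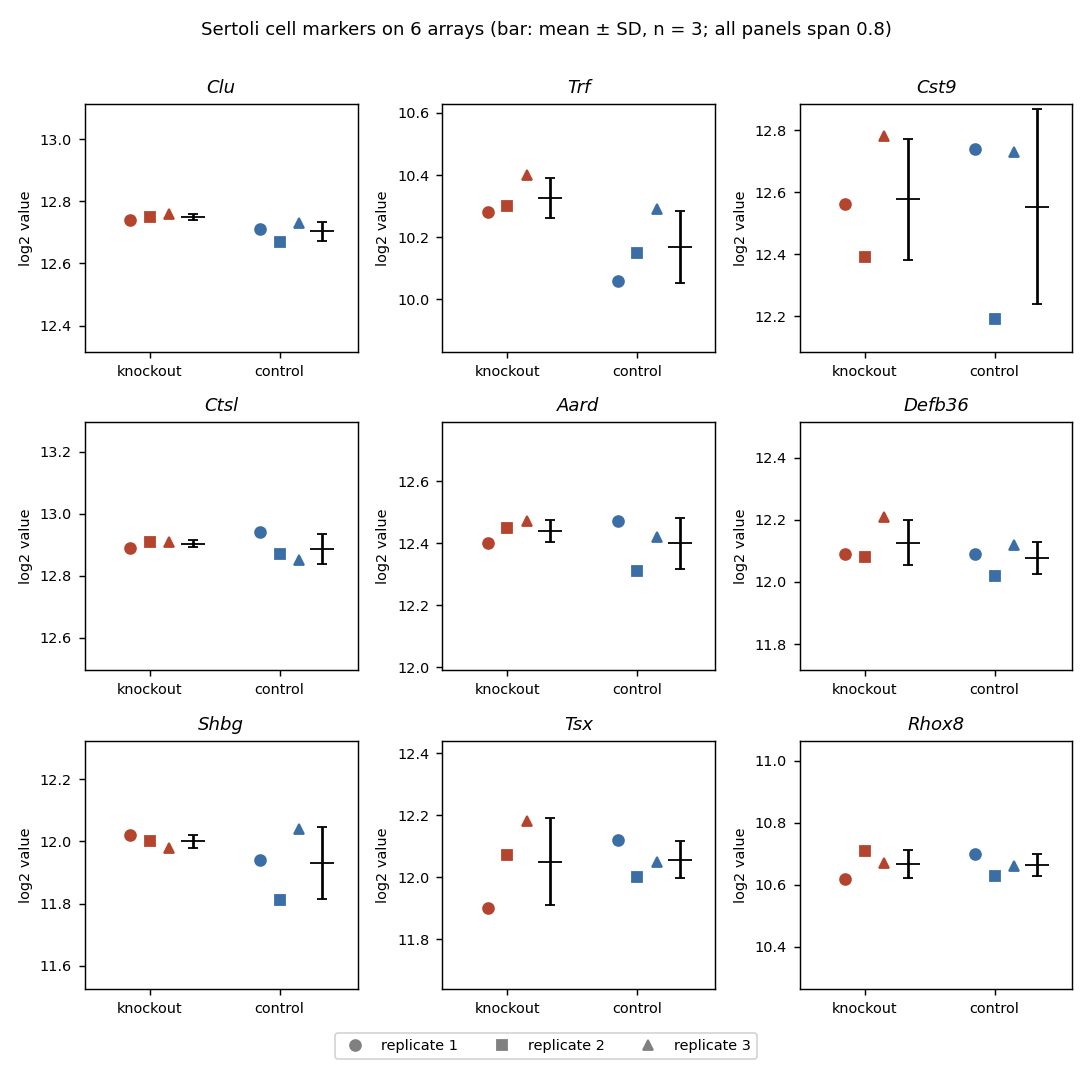
Log2 values (vertical axis) of the 9 Sertoli cell markers in 3 knockout and 3 control arrays. Symbols mark the replicate numbers of the labels, black bars the mean ± SD (n = 3), and each panel spans the same 0.8 log2 units. The groups overlap in every panel but that of Clu, where the nearest knockout and control values are 12.74 and 12.73, and control replicate 2 lies apart from the other control arrays in Cst9.

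Promoter sequence was looked at because testosterone acts on Sertoli cells through the androgen receptor, for which the half-site AGAACA was searched. RefSeq promoters of GRCm38.p6 were matched for 5 of the 9 members (Cst9, Ctsl, Defb36, Shbg and Tsx), and the 250 bases before each start were searched on both strands. The half-site was found in 2 of 5, Defb36 and Shbg, and in 16.1% of all 32851 promoters. A SOX site (AACAAT) was found in 1 of 5 (Ctsl) and in 9.42% of all, a GATA site (AGATAA) in 1 of 5 (Shbg) and 9.99% of all, a TATA box (TATAAA) in 1 of 5 (Shbg) and 12.4% of all, and an NR5A site (AAGGTCA) in 0 of 5 and 4.08% of all. The upstream stretches with a half-site are shown for Defb36 (chr2:152604077-152604326, plus strand) and Shbg (chr11:69617906-69618155, minus strand), and that of Cst9 (chr2:148834897-148835146, plus strand), the most variable member, for comparison. All run from 5′ to 3′ toward the start, with the searched motifs in capitals. In Shbg the letters of the half-site and of the TATA box overlap by 1 base. A match describes the letters and is not a binding site.
Defb36: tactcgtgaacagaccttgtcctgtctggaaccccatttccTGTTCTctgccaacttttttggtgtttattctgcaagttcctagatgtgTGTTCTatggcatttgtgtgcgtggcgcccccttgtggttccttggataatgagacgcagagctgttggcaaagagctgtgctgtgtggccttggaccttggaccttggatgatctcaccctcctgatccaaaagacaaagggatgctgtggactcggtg
Shbg: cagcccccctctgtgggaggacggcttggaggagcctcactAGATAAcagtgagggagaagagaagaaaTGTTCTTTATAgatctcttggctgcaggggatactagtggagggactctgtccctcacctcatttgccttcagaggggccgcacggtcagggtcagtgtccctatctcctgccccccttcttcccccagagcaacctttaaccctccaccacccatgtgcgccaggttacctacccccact
Cst9: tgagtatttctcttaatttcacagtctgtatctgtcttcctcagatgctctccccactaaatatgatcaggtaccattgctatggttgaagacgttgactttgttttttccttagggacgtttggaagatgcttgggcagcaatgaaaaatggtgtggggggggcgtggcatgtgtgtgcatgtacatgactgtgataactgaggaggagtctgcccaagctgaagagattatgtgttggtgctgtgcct

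Clu encodes clusterin, an extracellular chaperone and a major glycoprotein of the Sertoli cell. Its cluster 10416057, of a gene on chromosome 14, read 12.74, 12.75 and 12.76 in the knockout arrays and 12.71, 12.67 and 12.73 in the control arrays. All knockout values were above all control values, which was true of 1 of the 9 members (11.1%), against 6.73% of all clusters. The gap between the groups was 0.01, the last digit of the deposited values. The means were 12.75 ± 0.01 in knockout and 12.70 ± 0.031 in control arrays (SD, n = 3), a difference of 0.05 (SE 0.039, 1.03-fold, adjusted p = 0.725 in limma, exact permutation p = 0.1, two-sided, the smallest that 3 against 3 allows). The 95% interval of the ratio was 0.969 to 1.10.

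Trf encodes transferrin, the iron carrier that Sertoli cells pass to germ cells behind the barrier and that liver makes for plasma. It read 10.28, 10.30 and 10.40 in the knockout arrays and 10.06, 10.15 and 10.29 in the control arrays (cluster 10596148, gene on chromosome 9). The groups overlapped in 1 pair, since the highest control value stood just above the lowest knockout value. The difference of 0.16 (SE 0.068, 1.12-fold, 95% interval 0.055% to 24.8% higher) was the largest among the members and had an unadjusted p = 0.0491 and an adjusted p = 0.471 in limma (exact permutation p = 0.2). The unadjusted p did not stay under 0.05 in every fit: it was 0.00941 without control replicate 3 and 0.0590 to 0.156 without any 1 of the other arrays. Genes that encode liver and plasma proteins, and macrophage genes, were measured beside it. The 5 liver and plasma genes had a median difference of 0.03, with 3 above the control mean (Alb 0.14, Apoa1 -0.06, Ahsg 0.03), and the 9 macrophage genes had a median of 0.15, with 9 above it. Their part in the Trf value was not tested.

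Shbg encodes the androgen-binding protein, which the rodent Sertoli cell secretes into the tubule fluid. It read 12.02, 12.00 and 11.98 in the knockout arrays, close together, and 11.94, 11.81 and 12.04 in the control arrays (cluster 10387516, gene on chromosome 11). The control values lay on both sides of the knockout values. For this gene, whose upstream stretch above holds an androgen receptor half-site, the difference was 0.07 (SE 0.062, adjusted p = 0.740 in limma), and the 95% interval of the ratio ran from 0.948 to 1.16.

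Ctsl encodes cathepsin L, a cysteine protease that Sertoli cells release in step with the cycle of the tubule. It read 12.89, 12.91 and 12.91 in the knockout arrays and 12.94, 12.87 and 12.85 in the control arrays (cluster 10410124, gene on chromosome 13). The knockout values fell between the control values. The difference was 0.02 (SE 0.042, adjusted p = 0.927 in limma), with a 95% interval of the ratio of 0.944 to 1.08. Of the 20 other cathepsin genes measured, the median difference was 0.03, 12 lay above and 8 below the control mean, and 0 passed over all clusters. Their smallest p-values belonged to Cts7 (0.14, adjusted p = 0.381), Ctse (-0.16, 0.475) and Ctsd, the lysosomal aspartic protease (-0.10, 0.495).

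Cst9 encodes testatin, a cystatin-related protein of pre-Sertoli and Sertoli cells whose relatives inhibit cysteine proteases. It was the most variable member. Its cluster 10476924, of a gene on chromosome 2, read 12.56, 12.39 and 12.78 in the knockout arrays and 12.74, 12.19 and 12.73 in the control arrays. The range within the control group, 0.55, exceeded the range of each other member in either group, the next being 0.28 for Tsx in the knockout arrays. The difference of 0.02 (SE 0.16, adjusted p = 0.976 in limma) had a 95% interval of the ratio of 0.779 to 1.33. The values are thus compatible with a change of either direction inside that interval.

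Cst9 lies in a cluster of cystatin genes on chromosome 2, with Cst12 and Cst3 close by in the gene table. Cst12, another cystatin of the Sertoli cell, read 11.10, 11.16 and 11.31 in the knockout arrays and 11.15, 11.00 and 11.13 in the control arrays, with its lowest value in control replicate 2 as in Cst9. Of the 7 other numbered cystatin genes measured, 4 lay above and 3 below the control mean and 0 passed. The smallest p-values were those of Cst11, a cystatin of the epididymis (-0.25, adjusted p = 0.404), and Cst13 (0.21, adjusted p = 0.482). Probe sequences were not used here, so cross-hybridisation between these relatives was not tested.

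Defb36 encodes a beta-defensin, a small cysteine-rich secreted peptide of a family with antimicrobial members. It read 12.09, 12.08 and 12.21 in the knockout arrays and 12.09, 12.02 and 12.12 in the control arrays (cluster 10477134, gene on chromosome 2). The groups overlapped, and knockout replicate 3 was the highest of the 6 arrays. For this gene, the other one with a half-site upstream, the difference was 0.05 (SE 0.053, adjusted p = 0.785 in limma), and the 95% interval of the ratio was 0.950 to 1.13. Defb19, a beta-defensin gene of the same stretch of the chromosome, averaged 12.82 in knockout and 12.80 in control arrays. Among the 38 other beta-defensin genes measured 18 lay above and 19 below the control mean, with 0 past the threshold. Relative to the control mean, the mean over these genes was 0.13 on control replicate 3 and between -0.14 and 0.01 on the other arrays. Some genes, named after their values were seen, read far higher on that array alone. Defb42 read 7.52 on control replicate 3, 5.55 and 5.70 on the other control arrays and 5.81, 5.65 and 5.78 on the knockout arrays. Defb23 read 7.97 on control replicate 3, 6.38 and 6.52 on the other control arrays and 6.59, 6.36 and 6.48 on the knockout arrays. Others did not, such as Defb34, at 6.63 on control replicate 3 and 6.80 and 6.91 on the other control arrays. The smallest p-values were those of Defb21 (0.13, adjusted p = 0.389), Defb47 (0.13, 0.474) and Defb1 (-0.18, 0.507).

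The X-linked members had the smallest differences of the 9. Rhox8, a homeobox factor of the reproductive X-linked cluster that is made in Sertoli cells, read 10.62, 10.71 and 10.67 in the knockout arrays and 10.70, 10.63 and 10.66 in the control arrays (cluster 10604148). The 2 sets of values covered the same range, and the difference was 0.0033 (SE 0.044, adjusted p = 0.987 in limma, 95% interval of the ratio 0.933 to 1.08). Tsx, which lies beside the X-inactivation centre, read 11.90, 12.07 and 12.18 in the knockout arrays and 12.12, 12.00 and 12.05 in the control arrays (cluster 10601314). The knockout values lay on both sides of the control values, with a difference of -0.0067 (SE 0.075, adjusted p = 0.987, 95% interval of the ratio 0.880 to 1.13). Of the 7 other Rhox genes measured 3 lay above and 4 below the control mean and 0 passed. The smallest p-values were those of Rhox13 (0.10, adjusted p = 0.526), Rhox12 (-0.12, 0.538) and Rhox9 (0.08, 0.669).

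Aard, a gene of the Sertoli cell on chromosome 15, read 12.40, 12.45 and 12.47 in the knockout arrays and 12.47, 12.31 and 12.42 in the control arrays (cluster 10424082). The groups overlapped over most of their range. The difference was 0.04 (SE 0.053, adjusted p = 0.839 in limma), with a 95% interval of the ratio of 0.943 to 1.12.

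**Figure D2:**
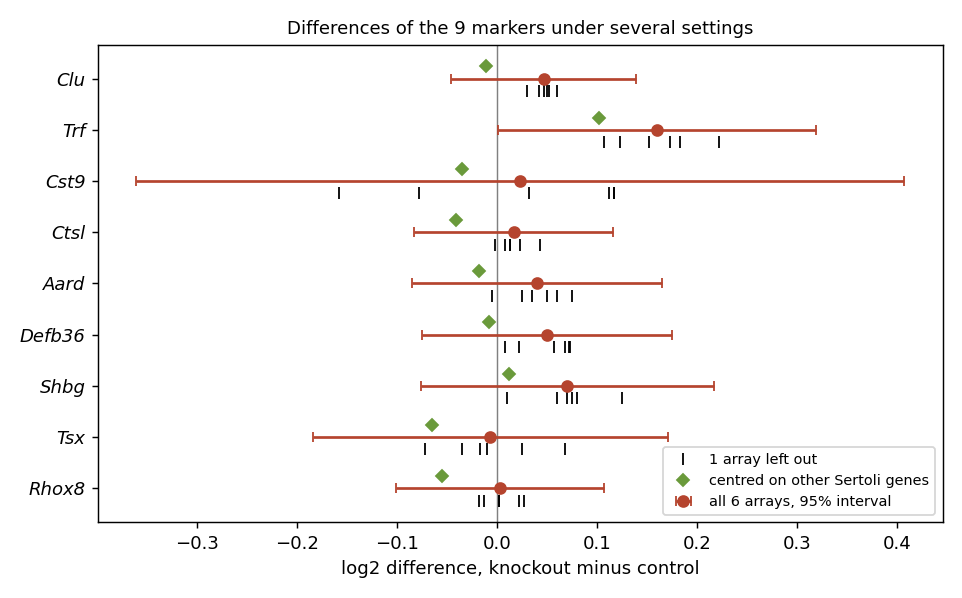
Log2 difference, knockout minus control (horizontal axis), of each marker. Red points with bars are the values over all 6 arrays with their 95% intervals, black ticks the values with 1 array left out, and green diamonds the values after each array was centred on 27 other Sertoli genes. Trf is the rightmost point at 0.16, Cst9 has the widest interval, and centring on other Sertoli genes leaves only Trf and Shbg above 0.

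The members tended to be high or low on the same arrays. Control replicate 2 had the lowest control value in 7 of 9 members (all but Trf and Ctsl) and lay below the control mean in 9 of 9, by 0.017 to 0.36. Knockout replicate 3 had the highest knockout value in 6 of 9 and lay above the control mean in 9 of 9. As a mean over the members, relative to the control mean, the knockout arrays lay at 0.0070, 0.025 and 0.10 and the control arrays at 0.037, -0.087 and 0.05. Without control replicate 2, 5 of 9 members lay above the control mean and the median difference was 0.0083, and Cst9 differed by -0.16. Over the 6 arrays, 33 of the 36 pairs of members had a positive Pearson correlation and 19 one above 0.5, the highest that of Clu and Shbg (0.845) and the lowest that of Trf and Ctsl (-0.257). These pairs share the same arrays and their normalisation. The mean over all clusters, relative to the control mean, was -8.65e-04 on control replicate 2 and -0.0027 on knockout replicate 3. The counts by array and by pair were not taken over all clusters, so they have no share to be read against.

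The clusters whose profile over the 6 arrays was most like the mean of the scaled member profiles were those of Camsap2 (Pearson r = 0.996), Nek7 (0.994), C330018D20Rik (0.994), Commd6 (0.989) and Omd (0.988). These 5 had the highest r of the 21780 other clusters, of which 367 had r of 0.9 or more over the 6 arrays. None of these 5 passed the threshold in limma (adjusted p = 0.663 to 0.818), and each had its lowest value in control replicate 2. They were picked for likeness to the members' profile, so both traits follow largely from that choice.

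Germ cell genes were read on the same arrays. The 15 pachytene spermatocyte genes had a median difference of -0.41, with 15 of 15 below the control mean. Of these 9 were lower at an unadjusted p under 0.05, against 6.45% of all clusters, and 0 passed the adjusted threshold. Without control replicate 1 the median was -0.68 and 2 passed, and without control replicate 2 the median was -0.22. Their mean, relative to the control mean, was -0.55, -0.51 and -0.27 in the knockout arrays and -0.37, 0.26 and 0.11 in the control arrays. Control replicate 2, lowest for the Sertoli cell markers, was thus the highest for these genes, and control replicate 1 lay among the knockout arrays. The smallest p-values were those of Cks2, a partner of cyclin-dependent kinases (-0.21, adjusted p = 0.296), Ccna1, the meiotic cyclin A1 (-0.27, 0.320), and Tcp11 (-0.74, 0.374). The part of the germ cell genes in the markers' values was not tested.

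**Figure D3:**
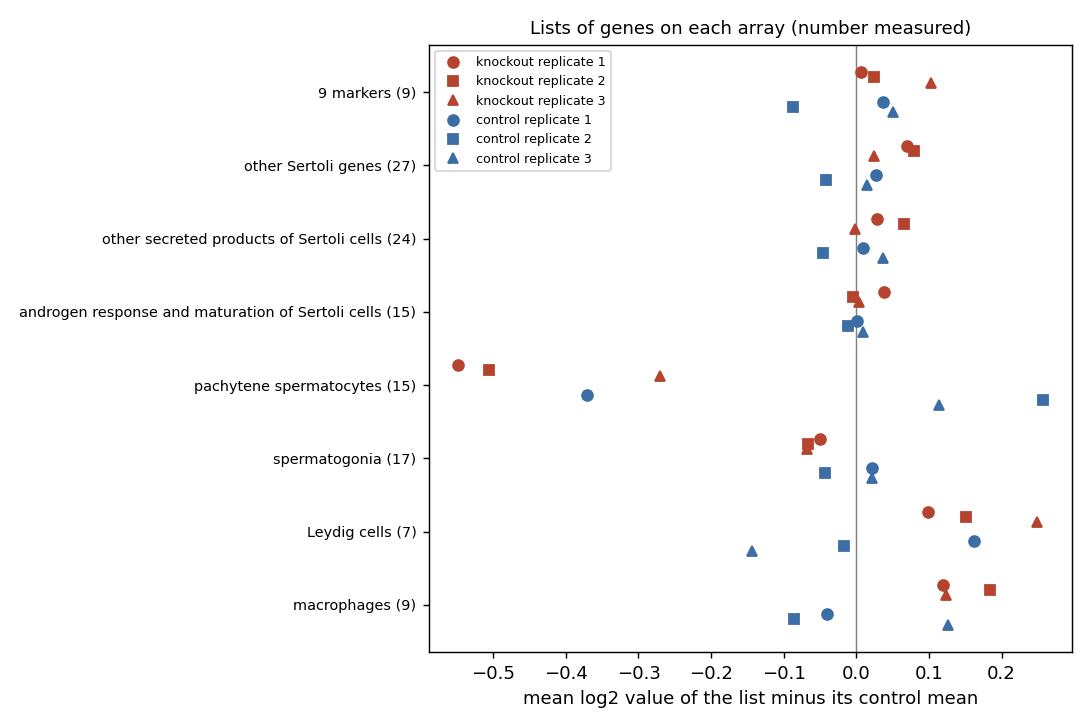
Mean log2 value of each list of genes on each array, minus the mean of the control arrays (horizontal axis), with the number of genes measured in brackets. Symbols mark replicate numbers, red for knockout and blue for control. The 9 markers stay between -0.087 and 0.10, while the pachytene genes spread from -0.55 to 0.26, with control replicate 1 among the knockout arrays.

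Other Sertoli genes give the level against which the markers can be read. The 27 measured had a median difference of 0.07 (0.05 without control replicate 2), with 21 above and 5 below the control mean. None passed over all clusters. At an unadjusted p under 0.05, 3 of the 27 were higher, against 4.1% of all clusters. They were Kitl, the stem cell factor shown to germ cells (0.28, SE 0.041, adjusted p = 0.235), Nr5a1, an orphan nuclear receptor of Sertoli and Leydig cells (0.18, SE 0.038, 0.291), and Inhba, an activin and inhibin subunit (0.13, SE 0.052, 0.451). Kitl read 10.79, 10.76 and 10.74 in the knockout arrays and 10.51, 10.44 and 10.49 in the control arrays, with a gap of 0.23 between the groups, against 0.01 for Clu and an overlap for each other marker. When each array was centred on these 27 genes, 2 of 9 markers (Trf, 0.10, and Shbg, 0.01) lay above the control mean, and the median of the markers was -0.02. This scaling takes the same 0.058 from the difference of every gene, so each marker with a smaller difference above 0 (Clu, Cst9, Ctsl, Aard, Defb36 and Rhox8) had to change sign.

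Further secreted products of Sertoli cells had small differences too. The 24 measured had a median difference of 0.03 (0.0033 without control replicate 2 and -0.03 after centring on other Sertoli genes), with 16 above and 7 below the control mean and 0 past the threshold. The smallest p-values were those of Serpina5, the protein C inhibitor (0.18, SE 0.066, adjusted p = 0.417), Fst, the activin-binding follistatin (0.15, 0.473), and Pdgfa, a growth factor (-0.21, 0.477). Serpina5 read 12.09, 12.10 and 12.26 in the knockout arrays and 12.07, 11.92 and 11.92 in the control arrays, with groups that did not overlap.

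Genes of androgen response and maturation lay on both sides of the control mean in near equal number. The 15 measured had a median difference of 0.0033, with 8 above and 7 below the control mean, and 0 passed over all clusters. They include Mki67 (-0.07) and Pcna (0.01), genes of dividing cells, so this split gives no direction of maturation. At an unadjusted p under 0.05, 3 of the 15 were higher, against 4.1% of all clusters, and 1 lower, against 6.45%. Fabp3, a fatty acid-binding protein, differed by 0.17 (SE 0.048, adjusted p = 0.350), Ocln, the tight junction protein occludin of the blood-testis barrier, by 0.18 (SE 0.059, 0.389), and Ccdc13 by -0.25 (SE 0.088, 0.404). The other higher gene, named after its values were seen, was Corin, a membrane protease (0.19, adjusted p = 0.412). In the list of the immature Sertoli cell, the median over 8 genes was -0.01, with 4 above and 4 below the control mean. Amh, the hormone that Sertoli cells lose as they mature, averaged 10.27 in knockout and 10.34 in control arrays (-0.06, SE 0.070, adjusted p = 0.796), and the smallest p-values were those of Dhh (0.09, 0.622), Inhbb (0.10, 0.630) and Krt18 (-0.14, 0.668). Of the genes in the immature list, 4 are also in the list of other Sertoli genes. Aldh1a1 and Thra are in both the immature list and that of androgen response and maturation.

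Other cells of the testis were read with lists of their own, in all of which 0 genes passed over all clusters. Spermatogonial genes had a median of -0.11 over 17 genes, 5 above and 12 below the control mean. Gfra1, the GDNF receptor (0.39, adjusted p = 0.242), Sall4 (-0.30, 0.288) and Dmrtb1 (-0.36, 0.288) had the smallest p-values. At an unadjusted p under 0.05 in limma, 7 of the 17 were lower, against 6.45% of all clusters, and 2 higher, against 4.1%. By the same count 2 of the 7 Leydig cell genes were higher and 1 lower. So were 3 of the 9 macrophage genes higher and 1 of the 10 epididymis genes lower. The 7 Leydig cell genes had a median of 0.22, 6 above and 1 below, with Hsd17b3, which completes testosterone synthesis, at -0.43 (adjusted p = 0.292), and Cyp11a1 at 0.37 (0.367) and Hsd3b6 at 0.22 (0.412). Testosterone acts on the Sertoli cell through its receptor, and the hormone itself was not measured on the arrays. The 7 peritubular myoid genes had a median of -0.01 (Des 0.15, Tagln -0.15, Myh11 -0.03), the 9 macrophage genes were led by Cx3cr1 (0.16, adjusted p = 0.389), C1qc (0.16) and C1qb (0.15), and the 10 epididymis genes had a median of -0.09 (Cst11 -0.25, Spint4 -0.17, Lcn5 -0.31). The mean of the epididymis genes, relative to the control mean, was highest on control replicate 3, at 0.18. It was -0.078 and -0.11 on control replicates 1 and 2, and -0.053, -0.24 and -0.065 on the knockout arrays. Adam7, named after its values were seen, read 6.51 on control replicate 3 and 5.33 and 5.30 on control replicates 1 and 2. On the knockout arrays Adam7 read 5.42, 5.26 and 5.38. Crisp4 went the other way, with 3.99 on control replicate 3 and 4.13 and 4.23 on control replicates 1 and 2. The source of the higher values on control replicate 3 was not tested. Insl3 and Crisp1, markers of Leydig cells and of the epididymis, were not analysed here.

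Genes next to the members were taken from the gene table of assembly GRCm38.p6. Of the 18 protein-coding neighbours before and after the members 16 were measured, and 0 had an unadjusted p under 0.05. The largest difference, named after its values were seen, was that of Cstdc2 beside Cst9, which averaged 7.64 in knockout and 7.26 in control arrays (0.38, SE 0.18, adjusted p = 0.507 in limma).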

How the data were processed

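The deposited table holds the authors' log2 values for 6 arrays, made with RMA (background correction, quantile normalisation, summary over probes) in Affymetrix Expression Console, per the submitters' processing notes. Software versions and the genome build: not given in the sources used here. Quantile normalisation gives all arrays nearly 1 distribution, so a shift common to all transcripts is lost, and RMA compresses differences of dim clusters. Of 35556 rows, 21789 had 1 gene symbol and were tested. Rows with several symbols (1621) or none (12146) were left out. Symbols were updated through the gene identifiers of GRCm38.p6 (21698 matched). No 2 arrays shared more than 4.12% of values.

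Knockout was compared with control in limma 3.58.1 (R 4.3.3, lmFit then eBayes, without covariates). The Benjamini-Hochberg adjustment ran over all 21789 clusters, with a threshold of 0.05 and 3 samples per group from the labels. Residual degrees of freedom were 4 and prior ones 3.24. Each difference is knockout minus control on the log2 scale, and intervals are 95%. The procedure was tested on simulated data with independent noise and added differences larger than those of the members. That test does not cover differences as small as theirs, or shifts that many genes share on an array. Each gene with several clusters was represented in lists by its brightest. The members and lists were chosen with earlier results of these data known, and the motifs after the values were seen. Named are all members, the 3 genes with the smallest p of each list and family, defining markers, and the 5 most similar profiles. Listed genes without a single-symbol cluster, and the targeted gene, are not reported here. Alternatives were other rows, filters, priors, scalings, a replicate block and leaving out each array.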

Additional observations from a re-analysis of the deposited data

How the results depend on the processing

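No member passed an adjusted p of 0.05 under any of the 12 refits, where the lowest adjusted p was that of Trf (0.309, dim clusters left out). The count of members higher at an unadjusted p under 0.05, 1 in the fit as reported, was 0 with all rows tested and 0 with arrays centred on other Sertoli genes, and ranged from 0 to 1 with 1 array left out. The count of members above the control mean, 8, was 2 after centring on other Sertoli genes and 5 to 9 with 1 array left out. Their median difference was -0.018 after that centring and 0.0083 to 0.06 with 1 array left out. After that centring the differences were -0.011 for Clu, -0.034 for Cst9, -0.041 for Ctsl, -0.018 for Aard, -0.0078 for Defb36 and -0.054 for Rhox8, and centring on medians gave 0.013 for Tsx. With 1 array left out, values ran from -0.16 to 0.12 for Cst9, -0.0017 to 0.043 for Ctsl, -0.005 to 0.075 for Aard, -0.072 to 0.068 for Tsx and -0.018 to 0.027 for Rhox8. Trf and Shbg kept their sign under all alternatives run. Among all clusters the count past the threshold, 3, was 0 with all rows tested, 7 with an intensity trend and robust prior, 0 with the replicate block and 0 to 52 with 1 array left out (52 without control replicate 1). The labels do not say whether the replicate numbers pair the samples, and the correlations did not settle it. Deviations of same-numbered arrays correlated at 0.166, -0.054 and 0.170, and 4 of 6 arrays correlated best with their own number. With the replicate block, Trf had an unadjusted p of 0.0185 and an adjusted p of 0.388 in limma. Averaging a member's clusters was not run, since each has 1. Signal over background was not given, so the limit that brightness sets on small changes is not known here.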
